A study of Mus musculus with 2 samples.

Results

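The cells described here are S100a8/S100a9-low macrophages, 328 of the 4822 kept cell barcodes of 2 single-cell libraries of cultured mouse bone marrow cells, all of them from the library without coculture. They were chosen on 4 genes. A member had at least 10 unique molecular identifiers (UMIs, tags that each mark 1 captured transcript) of Ctss, and Ctss made up at least 0.15% of its UMIs. Lyz2 made up at least 1% and S100a8 with S100a9 less than 0.2%. Barcodes with fewer than 500 genes, or more than 10% of UMIs from mitochondrial genes, had been dropped. The members made up 18.1% of the 1817 kept barcodes of their library (exact binomial 95% interval 16.3 to 19.9%, counting error only) and held 30.9% of its kept UMIs.

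Macrophages are phagocytes that take up particles, dead cells and lipoproteins, and break them down in acid lysosomes with proteases of the cathepsin family. In bone marrow cultures with GM-CSF, a growth factor of the myeloid lineage, monocytes mature into macrophages and dendritic-like cells beside neutrophils of all stages. Ctss encodes cathepsin S, a lysosomal protease that trims the chain bound to MHC class II molecules, and Lyz2 encodes the lysozyme of myeloid cells. S100a8 and S100a9 encode the paired calcium-binding proteins that fill the cytosol of neutrophils and are also made by young monocytes.

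Both libraries came from femur bone marrow of C57BL/6NCrljOri (H-2b) mice, cultured with GM-CSF at 40 ng/mL for 5 days, and each group has 1 library. In the library of the members no other cells were added, RPMI1640 was the named medium, and CD11b-high Ly6C-high cells were sorted. In the other library human mesenchymal stromal cells (MSC) were kept in inserts of 0.4 µm for 24 h before the coculture, and their ratio to marrow cells was 1:5. DMEM was the named medium of the coculture, and CD11b-mid Ly6C-mid cells were sorted. The insert kept the MSC apart from the bone marrow cells. CD11b is an integrin chain encoded by Itgam and Ly6C a surface protein encoded by Ly6c1 and Ly6c2. The sources used here give neither the age nor the number of the mice, nor whether marrow was pooled. The series addresses the myeloid-derived suppressor cells that form beside MSC.

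As deposited, the library of the members comprised 2180 barcodes with 28294186 UMIs, of which 1817 barcodes were kept. The coculture library comprised 3134 barcodes with 29217182 UMIs, of which 3005 were kept. The libraries shared 4 barcodes, none of them a member. Of the 363 dropped barcodes of the library without coculture 2 met the criteria on the 4 genes. A median member held 21417 UMIs (2384 to 79589) from 4679.5 genes, with a mitochondrial share of 2.93%. Neither group was replicated, so no test was made between groups and no p-value is given. The intervals below cover counting error only.

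Levels are UMIs summed over the cells of a group, scaled to a total of 1000000 (CPM), with exact Poisson 95% intervals where one is printed. These are counts of transcript 3' ends, not scaled to transcript length, so a gene is compared between groups and not with other genes. Ratios are log2 of the CPM of the members over that of the other group, with an exact conditional binomial 95% interval. A gene was counted as measured at 10 CPM or more in either group, and as higher or lower at a 2-fold difference. Where a group had 0 UMIs, the ratio was taken against 3 UMIs in that group and is written as "at least".

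The members were set beside 3 other groups of the same library and 1 of the coculture. The other kept barcodes of the library numbered 1489. Within them, 180 barcodes met the same Ctss and Lyz2 criteria but held 0.2% or more S100a8 and S100a9, and these are called S100a8/S100a9-bearing macrophages. Another 573 barcodes, called neutrophil barcodes, held at least 5% S100a8 and S100a9 and less than 0.05% Ctss. No kept coculture barcode met the rule of the members, 0 of 3005, which allows a share of up to 0.0998%. Without the Lyz2 criterion 28 coculture barcodes met the Ctss and S100a8/S100a9 criteria. The 20 of them used here also held 3 or more UMIs of C1qa, C1qb and C1qc together, and the other 8 were left out. The neutrophil and C1q groups were defined for these comparisons on the genes named. Since the rule cut on expression, the members' differences from each of these groups are descriptions of the cells chosen.

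**Figure D1:**
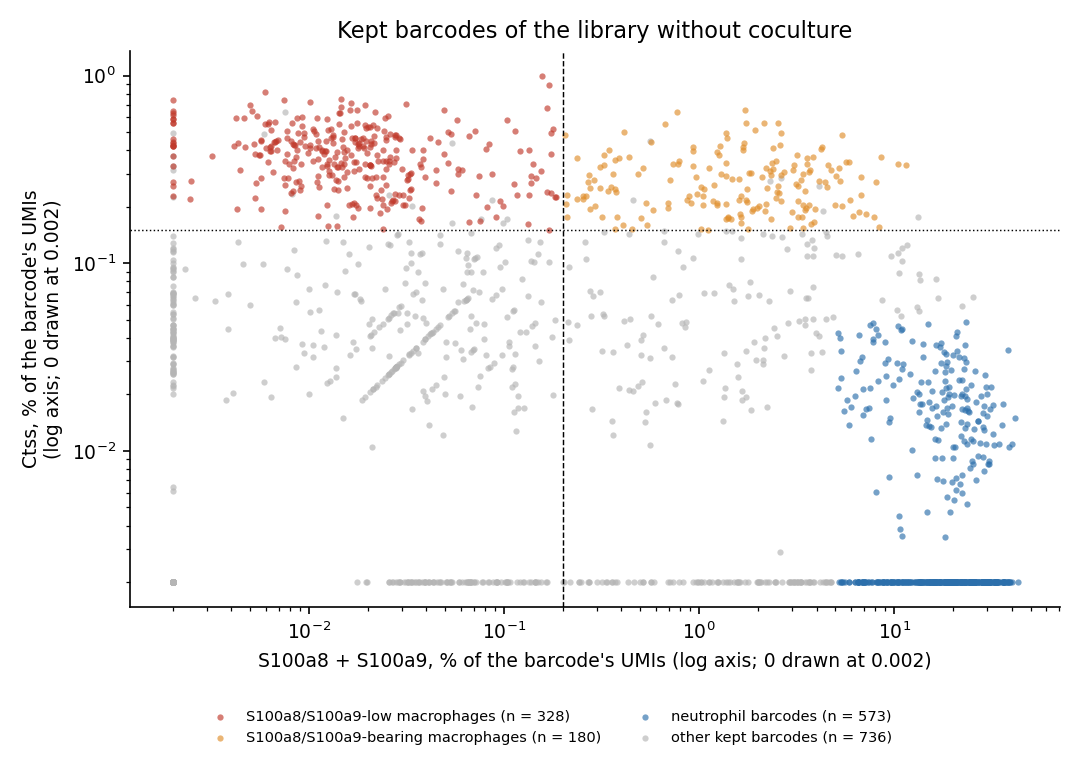
Each point is 1 kept barcode of the library without coculture, at its percent of UMIs from S100a8 and S100a9 (x, log axis) and from Ctss (y, log axis); values of 0 are drawn at 0.002. The dashed and dotted lines mark 0.2% S100a8 and S100a9 and 0.15% Ctss. The 328 members fill the upper left, the 180 S100a8/S100a9-bearing macrophages continue them to the right, and the 573 neutrophil barcodes lie at the lower right.

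Most members were far from the S100a8/S100a9 limit. Of the 508 barcodes with the Ctss and Lyz2 criteria, 97 held less than 0.01% S100a8 and S100a9 and 186 held 0.01 to 0.05%. Another 21 held 0.05 to 0.1% and 24 held 0.1 to 0.2%, the last members. Beyond the limit 15 held 0.2 to 0.3%, 20 held 0.3 to 0.5%, 22 held 0.5 to 1%, 46 held 1 to 2%, 58 held 2 to 5% and 19 more than that. The member nearest to the limit held 0.185% and the nearest barcode outside it 0.205%. For Ctss the nearest values were 0.151% inside and 0.144% outside, where 26 barcodes failed on this criterion alone. For Lyz2 they were 1.04% inside and 0.947% outside, with 6 such barcodes, and for the Ctss count 10 and 9 UMIs, with 7 such barcodes.

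Traces of S100a8 and S100a9 remained in the members, and their proportion differed from that in neutrophil barcodes. S100a8 was at 214 CPM in the members, 9875 CPM in the bearing macrophages and 82498 CPM in neutrophil barcodes. The count of S100a8 over that of S100a9 was 1.78 in the members, 0.883 in the bearing macrophages and 0.724 in neutrophil barcodes. No UMI of either gene was found in 20 members.

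All 5 genes given as markers of these cells were carried by most members, and the median neutrophil barcode had none of their UMIs. In GRCm38, the build of the files, they lie at chr2:14229392-14332057 (Mrc1), chr3:95526786-95556403 (Ctss), chr6:49036546-49070929 (Gpnmb), chr9:7344381-7369499 (Mmp12) and chr11:83703991-83706268 (Wfdc17), all protein-coding genes on the plus strand. Ctss, one of the genes of the rule, ranged per member from 15.1 to 99.3 UMIs per 10000 with a median of 38.2. Wfdc17, which encodes a small secreted protein of the whey acidic protein family, had a median of 25.7 (0 to 138.5) UMIs per 10000 in the members, 22.2 in bearing macrophages and 0 in neutrophil barcodes. Mmp12, the macrophage elastase, had medians of 16.6 (0 to 122.5), 15.0 and 0 in the same 3 groups. The members and the bearing macrophages overlapped widely in these genes. Summed over each group, Wfdc17 was at 2788 CPM in the members, 2415 CPM in bearing macrophages and 8.51 CPM in neutrophil barcodes.

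Gpnmb, a transmembrane glycoprotein of lysosome-rich phagocytes, had a median of 9.38 UMIs per 10000 in the members (0 to 62.5), 7.72 in bearing macrophages and 0 in neutrophil barcodes. Mrc1, the mannose receptor CD206, had the fewest UMIs of the 5. Its medians were 1.72 (0 to 7.65) in the members, 1.32 in bearing macrophages and 0 in neutrophil barcodes. With every cell thinned to 5000 UMIs, which kept 320 members, 179 bearing macrophages and 351 neutrophil barcodes, a Mrc1 UMI was seen in 52.2%, 45.8% and 0% of cells. A Wfdc17 UMI was seen in 96.9%, 98.9% and 3.13%. Before thinning the shares were 88.7%, 93.9% and 0.524% for Mrc1 and 99.1%, 100% and 4.36% for Wfdc17, at median depths of 21417, 37446 and 5926 UMIs.

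**Figure D2:**
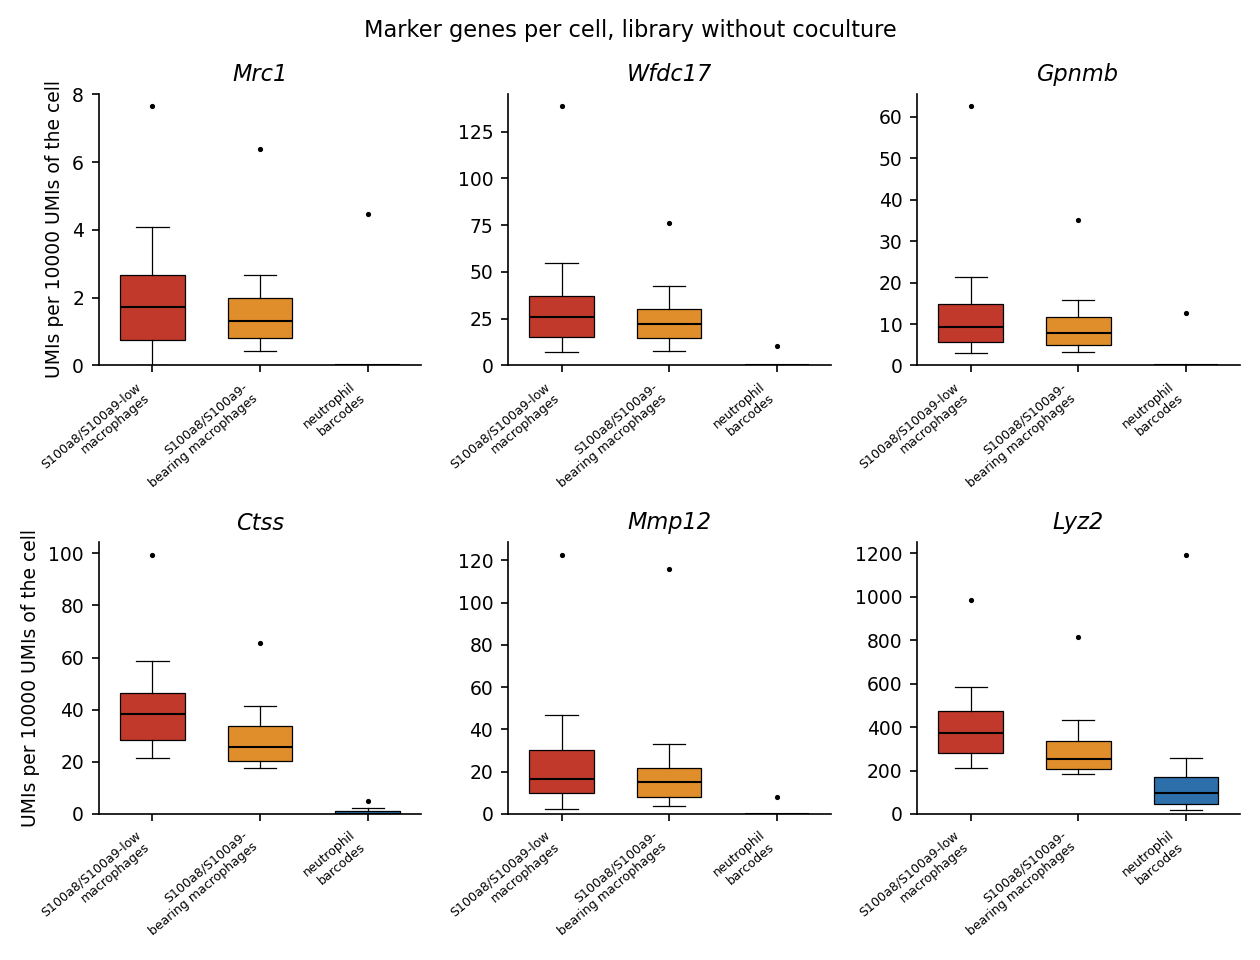
UMIs per 10000 UMIs of the cell (y) for the 5 given markers and Lyz2 in S100a8/S100a9-low macrophages (n = 328), S100a8/S100a9-bearing macrophages (n = 180) and neutrophil barcodes (n = 573). The line is the median, the box the quartiles, the whiskers the 10th and 90th percentiles and the dot the highest cell. Both macrophage groups overlap in every panel, and the medians of the 5 markers are 0 in neutrophil barcodes, which were chosen for low Ctss.

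The name macrophage was set beside a list of 16 markers, which includes Lyz2 of the rule. Of these 12 were measured, and 12 of 12 were higher in the members than in neutrophil barcodes, with a median log2 ratio of 5.42, where 29.0% of all measured genes were higher. The neutrophil barcodes were chosen for low Ctss and high S100a8 and S100a9, so this contrast does not tell macrophages from other myeloid cells. Over the C1q-bearing coculture cells, chosen in part on C1q genes of the list, 2 of 12 measured markers were higher and 5 lower. The median log2 ratio there was -0.67. Of all measured genes 18.6% were higher and 10.4% lower in that comparison. Csf1r, the receptor for the macrophage growth factor, was at 406 CPM in the members and 33 CPM in neutrophil barcodes. Adgre1, which encodes the F4/80 antigen, was at 163.5 and 58.9 CPM, and Cd68 at 502 and 84.2 CPM. Trem2, a lipid-sensing receptor, was at 308 and 7.86 CPM. Markers of resident tissue macrophages were nearly absent from the members, with 4 UMIs of Cd163, 9 of Marco and 0 of Vsig4 and Timd4.

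Markers of other cell types were unevenly present in the members. Of the 11 monocyte markers 8 were measured, with 4 higher and 3 lower than in neutrophil barcodes, and 2 lower than in bearing macrophages. Of all measured genes 29.0% were higher and 5.84% lower than in neutrophil barcodes, and 1.09% were lower than in bearing macrophages. They summed to 2780 CPM in the members, 3201 CPM in bearing macrophages and 8776 CPM in neutrophil barcodes. Chil3, whose levels are given further on, made up most of the sum in neutrophil barcodes. The sums therefore do not rank the groups for the other monocyte markers. At 5000 UMIs per cell, 79.4%, 88.8% and 72.4% of these groups held 5 or more UMIs of the monocyte list, Chil3 included. Of the 12 dendritic cell markers 6 were measured, and 6 of 6 were higher in the members than in neutrophil barcodes, with a median log2 ratio of 4.24 and a summed level of 965 CPM in the members, 829.8 CPM in bearing macrophages and 59.4 CPM in neutrophil barcodes. The 6 were Mgl2, H2-Ab1, Itgax (the CD11c chain), Ccl17, Clec10a and Irf4. With 5000 UMIs per cell, 5 or more UMIs of the list were held by 37.2% of members, 29.6% of bearing macrophages and 0.855% of neutrophil barcodes. Flt3 and Xcr1 of that list were at 0 UMIs in the members, and Zbtb46 and Clec9a had 4 and 4. Of the 7 markers of mature dendritic cells Ccr7, Fscn1 and Il12b were at 0 UMIs, and the list summed to 39.4 CPM. Over the C1q-bearing coculture cells 1 of 8 measured dendritic cell markers was higher and 5 lower. Of the mature dendritic cell markers 3 of 3 measured were lower there, where 10.4% of all measured genes were lower. The part of monocytes and of dendritic-like cells among the members was not tested.

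Osteoclast markers were higher than in neutrophil barcodes in 3 of 4 measured cases, where 29.0% of all measured genes were higher and 5.84% lower. The 3 were Atp6v0d2, Ctsk and Acp5, at 167, 57.9 and 47.4 CPM in the members, while Calcr and Oscar were at 0 UMIs. The remaining measured one, Mmp9, is also on the neutrophil list and was lower. The whole osteoclast list summed to 307 CPM in the members and 686 CPM in neutrophil barcodes. The platelet marker Pf4 was at 103 CPM in the members, against 0.437 CPM in neutrophil barcodes, and Ppbp had 1 UMI. The 9 B lineage markers summed to 31.1 CPM, nearly all from Ighm (29.1 CPM), with Ms4a1 and Pax5 at 0 UMIs. The 7 eosinophil markers summed to 4.42 CPM, with Prg2 and Epx at 0 UMIs, and the 7 markers of T or NK cells to 1.63 CPM. Of the progenitor genes Elane, Mpo and Ctsg had 5, 2 and 2 UMIs in all 328 members together, while Prtn3 had 66, and Kit was at 24.1 CPM against 39.3 CPM in neutrophil barcodes.

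Set beside the other 1489 kept barcodes of the library, a mixture that holds the bearing macrophages, the members were 2-fold higher in 197 of 8108 measured genes (2.43%) and 2-fold lower in 239 (2.95%). The median log2 ratio of all these genes was 0.11. With trimmed-mean (TMM) scaling that median was -0.01, with 103 genes higher and 284 lower. Without the bearing macrophages among the other barcodes, an alternative chosen after seeing the data, 775 genes were higher and 368 lower. Among the 20 genes with the highest ratio were the lysosomal protease Ctsk (57.9 against 21.1 CPM in the other barcodes), the lipid carrier Fabp5 (1512.5 against 616), the phospholipid transfer protein Pltp (60.9 against 25.6) and the peroxidase Prdx4 (125.5 against 52.4).

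The scavenger receptor Msr1, at 152 against 63.0 CPM, the growth factor Igf1, at 80.8 against 34.5 CPM, and the sulfatase Sulf2, at 65.1 against 26.0 CPM, were also among the 20. So were the complement genes C1qb and C1qc, with log2 ratios of 1.22 (interval 1.14 to 1.31) and 1.29 (1.18 to 1.41). Ms4a6d and Ms4a6c, with ratios of 1.48 and 1.38, and Klk1b1, with 1.37, belong to families of near-identical copies, and their counts are uncertain where reads could be shared. The highest ratio was that of Arg1, the arginase of alternatively activated macrophages, at 1.79 (1.58 to 2.01), but few members carried it. Its 464 UMIs came from 24 of the 328 members, and 5 members held 73.7% of them.

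The lowest ratios against the other barcodes belonged to granule and cytosol proteins of neutrophils. Ltf, lactoferrin, was at 1.28 CPM in the members against 595 CPM in the other barcodes. Camp, a cathelicidin, was at 0.932 against 381 CPM and Ngp, another granule protein, at 8.27 against 2839 CPM. Of the 71 Ngp UMIs in the members, 35 came from a single cell. S100a9 and S100a8 were 2 of these 10 lowest genes, as the rule makes them.

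The members and the S100a8/S100a9-bearing macrophages differed by 2-fold in few genes, and these groups were split by S100a8 and S100a9 alone. Camp and Ltf, genes of neutrophil granules, had the lowest ratios. In all 3 of 8063 measured genes (0.0372%) were 2-fold higher in the members, and 88 (1.09%) were 2-fold lower. The median log2 ratio over all measured genes was 0.02. Of the 32 pathway lists with at least 5 measured genes, 26 had no gene past 2-fold, and their medians lay between -0.22 and 0.30. The bearing macrophages held more UMIs per cell, with a median of 37446 and 6089 genes, against 21417 UMIs and 4679.5 genes in the members. Neutrophil barcodes had a median of 5926 UMIs. The part of depth, and of droplets that hold RNA of more than 1 cell, in these differences was not tested.

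Neutrophil markers differed together. Of 12 measured neutrophil markers 10 were lower in the members, both genes of the rule among them, with a median log2 ratio of -4.13. The summed level of the list was 2537 CPM in the members and 24778 CPM in the bearing macrophages, and no marker found in the files was at 0 in either group. With 5000 UMIs per cell, the median cell held 11 UMIs of the list in the members, 103 in the bearing macrophages and 1183 in neutrophil barcodes. Camp was at 0.932 CPM in the members, 115 CPM in bearing macrophages and 1385 CPM in neutrophil barcodes, and Ltf at 1.28, 127 and 2209 CPM. The siderophore-binding protein Lcn2 was at 19.9, 492 and 5471 CPM. Retnlg, a resistin-like protein, was at 1.16, 98.8 and 1127 CPM.

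Neutrophil receptors differed less than Camp and Ltf. Cxcr2, a chemokine receptor, was at 8.15 CPM in the members and 48.9 CPM in bearing macrophages, and Csf3r, the receptor for G-CSF, at 33.7 and 87.5 CPM. The gelatinase Mmp9 was at 25.3 and 167 CPM. Mmp8, a collagenase on the neutrophil list, stood apart from the others on it, with 1528 CPM in the members, 1466 CPM in bearing macrophages and 921.5 CPM in neutrophil barcodes. Wfdc21 was at 563, 909 and 1748 CPM in the same order. The cystatin genes Stfa3, Stfa2 and Stfa2l1, whose copies are near-identical and so uncertain, had log2 ratios of -6.02, -4.72 and -5.46 over the bearing macrophages.

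Of the 88 lower genes most lie outside the neutrophil marker list, and 5 of them, from the lists of lipid, iron and monocyte genes, are given here. The triglyceride-forming enzymes Dgat1 and Dgat2 had log2 ratios of -1.09 (-1.36 to -0.82) and -1.94 (-2.49 to -1.41). The iron exporter Slc40a1 was at 3.03 CPM in the members and 10.4 CPM in bearing macrophages, and the transferrin receptor Tfrc at 6.99 and 14.1 CPM. The monocyte gene Plac8 was at 3.49 CPM in the members and 31.8 CPM in bearing macrophages. In neutrophil barcodes the levels of all 5 were above those in the bearing macrophages, from 23.4 CPM (Tfrc) to 241 CPM (Plac8). How many of the 88 were above in this way was not counted. The monocyte and progenitor lists had 2 and 3 lower genes in all.

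The 3 genes higher in the members than in the bearing macrophages were Plet1, Ckb and Tpmt, named after their values were seen. Plet1, a surface protein found on dendritic cells and epithelium, was at 94.0 CPM in the members and 44.0 CPM in bearing macrophages, but 5 of the 44 members with a UMI held 65.8% of its 807 UMIs. Ckb, the brain-type creatine kinase, was at 12.0 and 5.27 CPM, and the methyltransferase Tpmt at 14 and 6.72 CPM, both from few UMIs (103 and 120 in the members). With a minimum of 50 CPM, 1 gene was higher. With 5000 UMIs per cell 206 genes were higher and 279 lower.

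**Figure D3:**
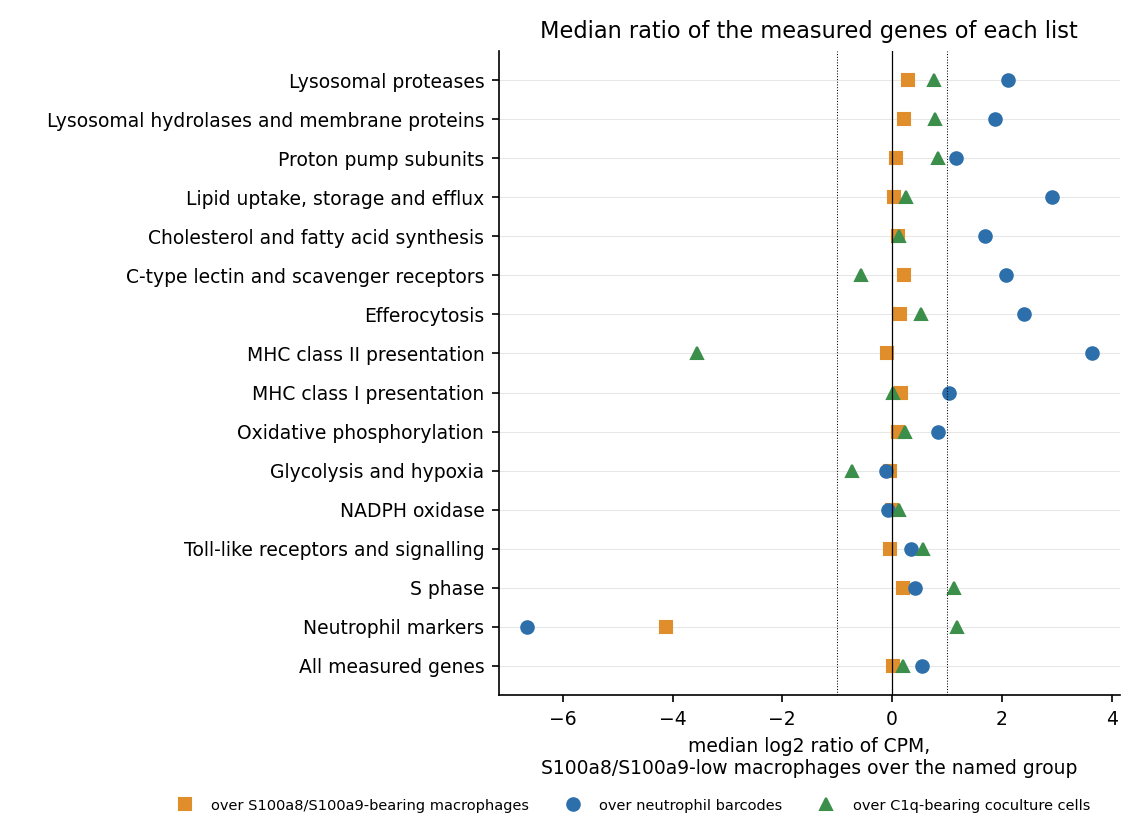
Median log2 ratio of CPM (x) over the measured genes of 15 lists and over all measured genes, for S100a8/S100a9-low macrophages over S100a8/S100a9-bearing macrophages (squares), over neutrophil barcodes (circles) and over C1q-bearing coculture cells (triangles). Dotted lines mark 2-fold. Apart from the neutrophil markers, the squares lie within 2-fold and close to 0, the circles reach 3.64 for MHC class II presentation, and the triangle of that list is at -3.56.

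Against neutrophil barcodes, 2367 of 8165 measured genes (29.0%) were higher in the members and 477 (5.84%) lower, with a median log2 ratio of 0.55 over all of them. TMM scaling brought that median to 0.05, a shift of all ratios in 1 direction, and gave 1226 genes higher and 870 lower. Counts below are on the unshifted scale and have to be read against 29.0%. In 15 of 32 pathway lists the genes higher in the members outnumbered the other measured genes. Median depth differed, at 21417 UMIs per member and 5926 per neutrophil barcode, and its part in these counts was not tested.

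Lysosomal proteases were nearly all higher in the members. Of 13 measured genes 12 passed 2-fold, with a median log2 ratio of 2.11, also 12 with TMM scaling. Ctss is one of them, and its call is fixed by the rule and by the choice of the neutrophil barcodes. The aspartic protease Ctsd was at 4221 CPM in the members and 1099 CPM in neutrophil barcodes. The cysteine proteases Ctsb and Ctsz were at 1297 against 225 CPM and 1066 against 246 CPM. Legumain, encoded by Lgmn, was at 296.5 against 13.1 CPM. Ctsk, a protease best known from osteoclasts, had 497 UMIs in the members and 1 in neutrophil barcodes, a log2 ratio of 8.05 (5.57 to 13.36). The inhibitor Cstb was the exception, at 886 and 618.5 CPM.

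Lysosomal hydrolases and membrane proteins followed, in a list that also holds Plin2 of lipid droplets. Of its 22 genes 17 passed 2-fold, with a median of 1.87 (13 genes with TMM scaling). Psap, the precursor of the saposins that present lipids to hydrolases, was at 10047 CPM in the members and 1313 CPM in neutrophil barcodes. Every member carried Psap, at 28.0 to 264 UMIs per 10000 and a median of 101.5. The membrane protein Lamp1 was at 1459 and 398 CPM, the cholesterol-binding Npc2 at 1337.5 and 296 CPM, and the acid lipase Lipa at 218 and 57.6 CPM. Of the measured proton pump subunits 8 of 15 passed 2-fold (3 with TMM scaling), led by Atp6v0d2 at 167 against 5.46 CPM.

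The promoters of genes that differed together were read for short motifs, on both strands. RefSeq windows (GRCm38.p6, the build of the files) run from 250 bases before to 50 after each gene's start, and of 32851 windows 7.15% hold CACGTG and 0.974% the longer TCACGTGA, which contains it. CACGTG is the core of the element read by TFEB and its relatives, regulators of lysosomal genes. Of the protease list 10 of 13 genes matched, with CACGTG in 4 of 12 windows (33.3%), those of Ctsa, Ctsd, Ctsl and Lgmn, and TCACGTGA in 2 of them, Ctsa and Ctsd. Of the hydrolase list 17 of 22 matched, with CACGTG in 4 of 18 windows (22.2%), those of Gla, Glb1, Lamp1 and Plin2. Plin2, a gene of lipid droplets, is counted again in the lipid list. Of the proton pump list 11 of 16 matched, with CACGTG in 4 of 15 windows (26.7%). It was in 3 of 17 windows of cholesterol and fatty acid synthesis (17.6%), 2 of 13 of the lipid list (15.4%) and 1 of 9 of MHC class II presentation (11.1%). A match is a run of letters and not evidence of binding. Ctsd and Lamp1 are printed because they are abundant in the members and hold the motif more than once. Shown are the 250 bases before each start, 5′ to 3′ on the gene's strand, with CACGTG in capitals; the Ctsd window is chr7:142387828-142388077 on the minus strand and the Lamp1 window chr8:13158911-13159160 on the plus strand.
Ctsd: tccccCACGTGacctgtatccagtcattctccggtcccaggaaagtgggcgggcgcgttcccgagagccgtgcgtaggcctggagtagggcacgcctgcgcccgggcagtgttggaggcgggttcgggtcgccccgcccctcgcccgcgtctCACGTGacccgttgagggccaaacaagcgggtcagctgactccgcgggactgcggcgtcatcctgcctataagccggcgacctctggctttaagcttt
Lamp1: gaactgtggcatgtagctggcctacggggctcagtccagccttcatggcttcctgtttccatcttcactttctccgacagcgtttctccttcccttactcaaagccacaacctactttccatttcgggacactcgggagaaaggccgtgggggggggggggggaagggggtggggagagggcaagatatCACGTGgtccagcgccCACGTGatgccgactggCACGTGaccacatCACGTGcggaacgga

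In Ctsd the motifs end 239 and 92 bases before the start, and in Lamp1 55, 39, 22 and 9 bases before it. Genes of TFEB and its relatives were also compared, and whether these factors act on the promoters shown was not tested. Tfeb was at 43.1 CPM against 28.8 CPM in neutrophil barcodes and Tfe3 at 49.1 against 26.6 CPM, both under 2-fold. Mitf was at 50.2 against 14.8 CPM and Tfec, a relative expressed in macrophages, at 137 against 25.5 CPM, both over 2-fold.

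Among other transcription factors, Bhlhe41, Irf8 and Klf4 were far higher in the members than in neutrophil barcodes. Bhlhe41 was at 71.5 CPM in the members and 0.655 CPM in neutrophil barcodes, a log2 ratio of 6.77 (5.22 to 9.05). Irf8, which monocytes need, was at 165 and 2.84 CPM, and Klf4 at 207 and 3.71 CPM. Spi1, which encodes PU.1 and serves both lineages, was at 512 and 700.4 CPM, and Cebpb at 1412 and 1355 CPM. In all 13 of 26 measured factors were higher and 2 lower (12 and 4 with TMM scaling), and against the bearing macrophages none was. Pparg, a factor of lipid-handling macrophages, was at 10.0 CPM in the members and 18.8 CPM in neutrophil barcodes.

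Another motif, GAGGAAGT, the core bound by PU.1, was in 3.20% of all windows and in 2 of the 6 windows of the 5 given markers, those of Ctss and Mmp12. It was also in 2 of 12 windows of the proteases (16.7%), Ctsc and again Ctss, and 2 of 18 of the hydrolases (11.1%). No window of the proton pump, lipid, cholesterol and fatty acid synthesis or MHC class II lists held it. Mmp12 is printed as a marker that was not part of the rule. Its window is chr9:7344147-7344396 on the plus strand, and the capitals mark ACTTCCTC, the reverse complement of GAGGAAGT, which ends 80 bases before the start.
Mmp12: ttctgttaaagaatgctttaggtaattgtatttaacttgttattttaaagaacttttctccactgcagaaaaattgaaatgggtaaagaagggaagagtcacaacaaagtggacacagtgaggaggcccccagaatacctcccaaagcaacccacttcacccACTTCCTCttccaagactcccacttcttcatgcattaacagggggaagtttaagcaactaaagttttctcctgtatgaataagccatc

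Genes of lipid uptake and handling were higher in the members in 13 of 18 cases (median 2.92) and lower in 2, Dgat1 and Dgat2 (11 and 3 with TMM scaling). Lpl, lipoprotein lipase, was at 1061 CPM in the members and 87.5 CPM in neutrophil barcodes, with a median of 7.12 UMIs per 10000 in the members (0 to 53.0). Fabp5 was at 1512.5 and 57.6 CPM, and the apolipoprotein Apoe at 568 and 44.3 CPM. The receptors Lrp1 and Cd36 were at 388 against 81.6 CPM and 27.1 against 0.218 CPM. The droplet coat protein Plin2 was at 263 and 257.5 CPM, close to equal. Enzymes of cholesterol and fatty acid synthesis were also higher, in 16 of 21 cases (13 with TMM scaling), with the desaturase Scd2 at 414 against 115 CPM.

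Receptors for lectins, debris and dead cells formed another group. Of the C-type lectin and scavenger receptors 9 of 14 measured were higher than in neutrophil barcodes, and Clec12a was lower, at 37.3 against 264 CPM (9 higher and 4 lower with TMM scaling). Clec4n, which encodes dectin-2, was at 1141 against 187 CPM, and Mgl2, a galactose-binding lectin, at 414.5 against 29.7 CPM. Axl, a receptor for tagged dead cells, was at 301 against 3.06 CPM. Its relative Mertk had 264 UMIs in the members and none in neutrophil barcodes, at least 46.9-fold higher. The ligand Gas6 was likewise at least 37.9-fold higher, with 213 UMIs in the members. Among the genes of efferocytosis, the clearing of dead cells, 10 of 14 measured genes passed 2-fold (8 with TMM scaling).

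Receptors for antibodies and inhibitory receptors were higher in 8 of 20 cases and lower in 2. Fcgr2b, the inhibitory antibody receptor, was at 665 CPM in the members and 95.2 CPM in neutrophil barcodes, and Sirpa, which reads a signal against engulfment, at 574 and 216 CPM. Cd200r1, an inhibitory receptor of myeloid cells, was at 183 and 26.4 CPM. Trem1, an amplifier of inflammation in neutrophils and monocytes, was at 10.5 and 59.4 CPM. Of the Toll-like receptors and their adaptors 2 of 15 were higher, a smaller share than among all genes. Tlr7, a sensor of single-stranded RNA, was one of them, at 40.4 against 2.40 CPM, while Tlr2 was at 211 against 122 CPM.

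Receptors for growth factors and chemokines differed in both directions. Csf2ra, the specific chain of the GM-CSF receptor, was at 266 CPM in the members and 219 CPM in neutrophil barcodes, and the shared chain Csf2rb at 651 and 220.0 CPM. Ccr2, the receptor that brings monocytes out of the marrow, was at 434 against 10.3 CPM. Ccr1 was at 237 against 362 CPM, under 2-fold. Cx3cr1, a receptor of patrolling monocytes, had only 16 UMIs in the members.

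Of the chemokine ligands, Ccl6 had the most UMIs in the members, at 12778 CPM against 7645 CPM in neutrophil barcodes, and every member carried it (14.6 to 305 UMIs per 10000). Ccl9 was at 1081 against 91.2 CPM and the monocyte attractant Ccl2 at 136 against 15.3 CPM. Ccl3 and Ccl4, inflammatory chemokines, were at 370.1 against 629 CPM and 269 against 294 CPM, both under 2-fold. Ccl4 was uneven among the members, of whom 5 held 57.1% of its 2311 UMIs. Ccl17, a chemokine of dendritic cells, had 668 UMIs from 16 members, and 5 of them held 95.7%. The inflammatory cytokines Il1b and Tnf were at 40.3 against 85.6 CPM and 25.3 against 56.1 CPM, and Il10 and Il12b were at 0 UMIs in both groups.

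Of 15 measured genes linked to suppression of T cells by myeloid cells, the subject of the series, 4 were higher than in neutrophil barcodes and 5 lower. S100a8 and S100a9 of the rule were among the lower ones. Of all measured genes 29.0% were higher, close to the share in this list, and 5.84% lower. Nos2, the inducible nitric oxide synthase, and Il10 were at 0 UMIs in the members. Arg2, the mitochondrial arginase, was at 28.4 against 81.6 CPM. Cd274, which encodes the checkpoint ligand PD-L1, was at 106 CPM in the members, 102.5 CPM in bearing macrophages and 24.4 CPM in neutrophil barcodes. Tgfb1 was at 419, 399.9 and 300.3 CPM in the same order. Against the bearing macrophages no gene of this list besides S100a8 and S100a9 passed 2-fold.

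Genes of alternative activation, the state that interleukin-4 induces, were higher than in neutrophil barcodes in 8 of 12 measured cases, with Retnla at 0 UMIs in the members. Clec10a was at 65 against 0.873 CPM, and the ribonuclease gene Ear2, a member of a family of close copies, at 61.4 against 3.06 CPM. Chil3 was the gene of this list that was lower, at 1385 CPM in the members, 1849 CPM in bearing macrophages and 7706 CPM in neutrophil barcodes. Complement genes differed in both directions. The C1q chains and the receptor C3ar1 (145 against 28.4 CPM) were higher, and C5ar1, a receptor of chemotaxis, was lower (52.9 against 222 CPM). Of the matrix and adhesion genes 13 of 19 were higher, with Tgfbi at 606 against 87.3 CPM and the galectin Lgals1 at 1092 against 127 CPM.

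Genes of MHC class II presentation were all higher than in neutrophil barcodes (9 of 9 measured, 8 with TMM scaling). Cd74, the invariant chain, was at 2149 CPM in the members and 103 CPM in neutrophil barcodes. The class II chains H2-Aa and H2-Ab1 were at 259 against 0.437 CPM and 255 against 7.42 CPM, and the peptide loader H2-DMa at 391 against 53.5 CPM. For H2-Aa the neutrophil value rests on 2 UMIs, and the log2 ratio was 9.21 (7.36 to 12.26). In bearing macrophages H2-Aa was at 341 CPM, and no gene of the list passed 2-fold in either direction against them. CTGATTGG, an inverted CCAAT box of class II promoters searched after seeing the data, was in 4.10% of all windows and in 3 of the 9 windows of this list, those of H2-Aa, H2-Eb1 and H2-Oa. It was also in 4 of 17 windows of cholesterol and fatty acid synthesis (23.5%), 3 of 18 of the lysosomal hydrolases (16.7%) and 1 of 13 of the lipid list (7.69%), and in none of the proteases, the proton pump or the given markers. The 2 printed belong to chains that varied together among the members, with the box in capitals, at chr17:34287824-34288073 on the minus strand and chr17:34305617-34305866 on the plus strand, 43 and 54 bases before the start.
H2-Aa: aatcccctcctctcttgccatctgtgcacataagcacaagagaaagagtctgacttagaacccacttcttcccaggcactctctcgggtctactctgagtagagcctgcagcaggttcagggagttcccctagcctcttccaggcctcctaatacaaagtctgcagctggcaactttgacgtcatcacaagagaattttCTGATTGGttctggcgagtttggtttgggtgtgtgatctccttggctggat
H2-Eb1: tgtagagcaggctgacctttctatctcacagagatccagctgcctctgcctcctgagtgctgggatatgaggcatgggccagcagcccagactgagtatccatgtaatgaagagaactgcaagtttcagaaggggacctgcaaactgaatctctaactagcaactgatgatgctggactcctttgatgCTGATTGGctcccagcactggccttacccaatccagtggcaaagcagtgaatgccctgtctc

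Ratios of energy genes were smaller than those of the lysosomal ones. Of the 26 genes of oxidative phosphorylation 7 were higher than in neutrophil barcodes (2 with TMM scaling) and none lower, close to the 29.0% of all genes, with Sdhc of complex II at 118.5 against 36.2 CPM and Atp5a1 of the ATP synthase at 491 against 197 CPM. Of 23 genes of glycolysis and hypoxia 1 was higher and 4 lower. Hif1a, the oxygen-regulated factor, was at 135 against 47.6 CPM, and the oxygen sensor Egln3 at 25.9 against 96.3 CPM. Of 7 genes of the NADPH oxidase, which makes the oxidative burst, 0 were higher and 3 lower. Cybb was at 926 against 497 CPM, and the small GTPase Rac2 at 372 against 955 CPM.

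Ferritin genes were among the 10 with the most UMIs in the members, with Fth1 at 38725 CPM against 11149 CPM in neutrophil barcodes and Ftl1 at 17203 against 9780.1 CPM. The heme-degrading enzyme Hmox1 was at 155 against 43.9 CPM. The others, leaving out ribosomal and mitochondrial genes, were Lyz2, Tmsb4x, Ccl6, Psap, Actb, Tpt1, Malat1 and Lgals3. Lgals3, a galactose-binding lectin of macrophages, was at 5847 CPM in the members and 2701 CPM in neutrophil barcodes. Of the genes of the sort gate, Ly6c2 was at 351 CPM in the members and 587 CPM in neutrophil barcodes, and Itgam at 382 and 305 CPM.

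Variation among the members was measured in 320 members thinned to 5000 UMIs, by the variance over the mean (Fano factor). Its median was 1.11 over 1471 genes with a mean of at least 0.5 UMI. The highest values were those of Fth1 (32.2), Lyz2 (31.4), Cd74 (27.7), Chil3 (25.9), Ccl4 (19.1) and Apoe (14.7). At the same relative spread the Fano factor is larger for a gene with a higher mean. The means were 191.5 UMIs for Fth1 and 196.6 for Lyz2, against 10.2 for Cd74 and 0.884 for Ccl4. The order is therefore not one of relative variation. For Cd74 the lowest member had 0, the median member 5.99 and the highest 225.5 UMIs per 10000. Chil3, a chitinase-like protein of monocytes and macrophages, spanned 0 to 222.5 around a median of 4.92, and Apoe 0 to 93.5 around 0.877. In the bearing macrophages the medians were 15.7 for Cd74, 10.0 for Chil3 and 1.43 for Apoe.

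Genes differed in how many members held them. Fn1, fibronectin, had a median of 0.311 UMIs per 10000 and a 90th percentile of 18.3, with UMIs in 170 of 328 members. C1qb had a median of 0.298 and a 90th percentile of 9.69, with UMIs in 175 members. C1qa was found in 79 members, of whom 5 held 36.1% of its UMIs. Fstl1, a secreted follistatin-like protein, came from 83 members, with 50.8% in 5 of them. Irf7, an interferon-response factor, had 58 UMIs from 20 members and 74.1% of them in 5. By contrast Ctsd lay between 19.9 and 67.0 UMIs per 10000 in the middle 80% of members.

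**Figure D4:**
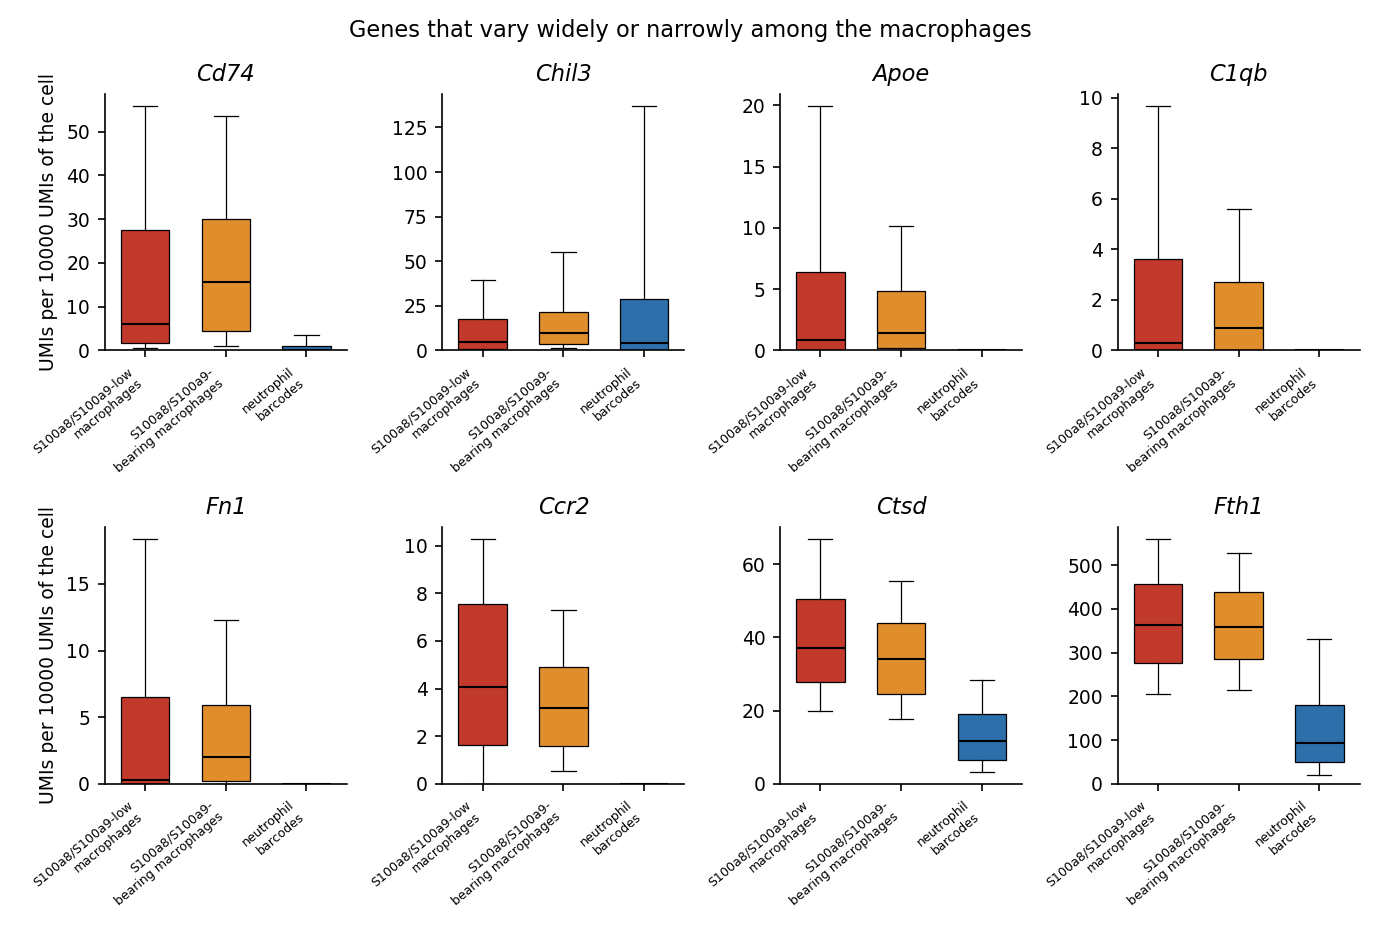
UMIs per 10000 UMIs of the cell (y) for 8 genes in S100a8/S100a9-low macrophages (n = 328), S100a8/S100a9-bearing macrophages (n = 180) and neutrophil barcodes (n = 573). The line is the median, the box the quartiles and the whiskers the 10th and 90th percentiles; higher and lower cells are not drawn. Cd74, Apoe, C1qb and Fn1 have medians close to the bottom of their range in the members, while Ctsd and Fth1 are present in every member.

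Genes that varied together among the 320 thinned members are given as Spearman's rho over cells, a description of 1 library in which all points share depth and batch. Of 406 pairs among 29 genes, 15 reached 0.4 in either direction. The class II genes formed the tightest group, with H2-Aa and H2-Ab1 at 0.74, H2-Aa and Cd74 at 0.70 and H2-Aa and H2-Eb1 at 0.63. Ctsd went with Ccl6 (0.54), Psap (0.48) and Wfdc17 (0.46), and Ftl1 with Fth1 (0.43). C1qa and C1qb reached 0.48, and the mitosis genes Mki67 and Birc5 0.59.

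Ccr2 ran against the ferritin genes, Ccl6 and Ctsd, with rho of -0.39 for Ftl1, -0.35 for Fth1, -0.35 for Ccl6 and -0.34 for Ctsd. For the lysosomal genes Psap and Ctss the rho of Ccr2 was -0.12 and 0.04. Mmp12 ran against Chil3 (-0.37). Between 4 class II genes and Ftl1 rho lay between -0.22 (H2-Ab1) and -0.10 (H2-Eb1), and with Fth1 between 0.015 (H2-Ab1) and 0.11 (Cd74). The original UMI total of the cell gave rho between -0.24 (Ctss) and 0.22 (Lgals3), with -0.23 for Ccr2 and 0.20 for Ftl1, and the part of depth in the pairs was not tested.

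**Figure D5:**
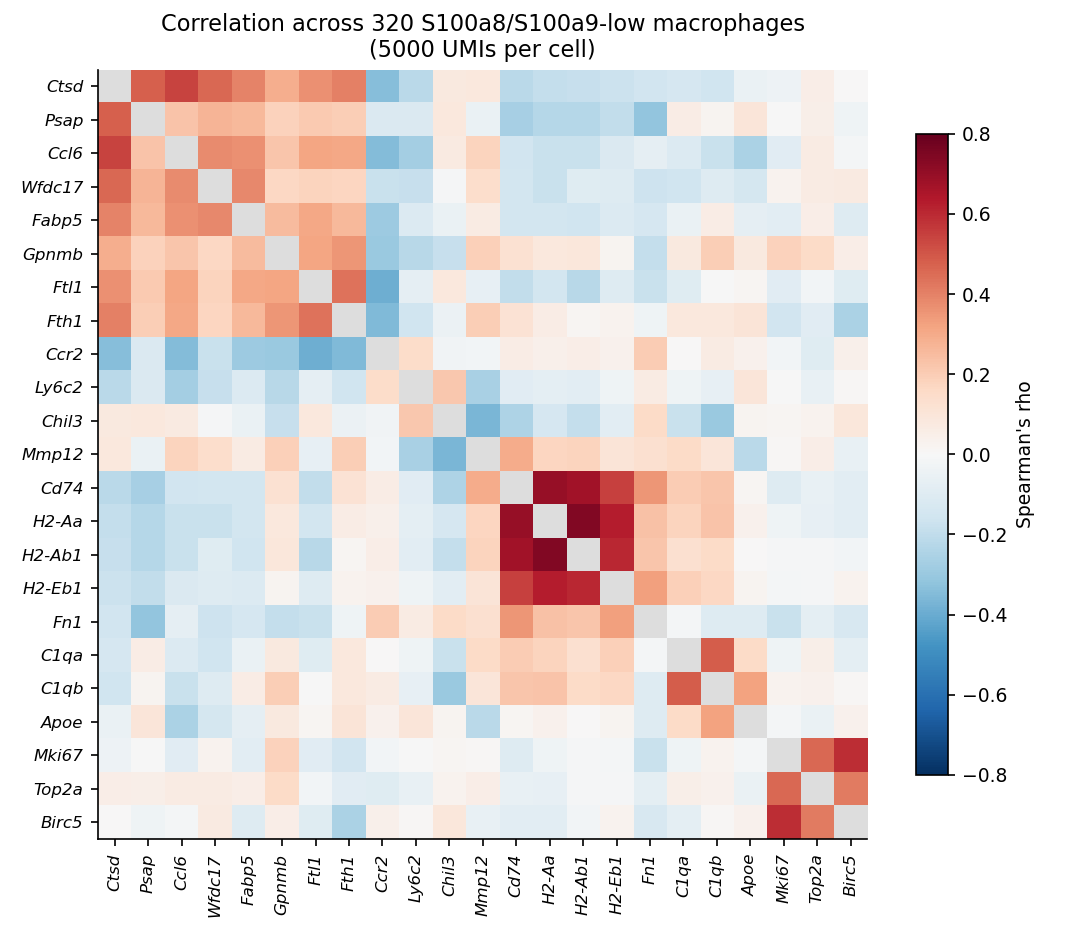
Spearman's rho (colour scale, -0.8 to 0.8) between 23 genes across 320 S100a8/S100a9-low macrophages thinned to 5000 UMIs each; grey marks the diagonal. The class II genes form 1 red block, up to 0.74, and Ctsd, Psap, Ccl6, Wfdc17, Fabp5, Gpnmb, Ftl1 and Fth1 another, weaker one, while Ccr2 is blue against most genes of the weaker block.

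Mitosis genes were unevenly spread over the members, and the order of the groups turned with the number of UMIs asked. With 5000 UMIs per cell 30 of 320 members (9.38%) had 20 or more UMIs of the 26 listed genes of G2 and M phase, against 7.26% of the bearing macrophages and 5.13% of neutrophil barcodes. With 5 or more such UMIs the shares were 22.2% of members, 35.2% of bearing macrophages and 23.4% of neutrophil barcodes, and the medians were 2, 3 and 3 UMIs. The whole list summed to 1205 CPM in the members, 1155 CPM in bearing macrophages and 1456 CPM in neutrophil barcodes. Against neutrophil barcodes 4 of its 26 genes were higher and 1 lower, where 29.0% and 5.84% of all measured genes were. Mki67 was at 85.1 CPM in the members and 54.1 CPM in neutrophil barcodes, and the topoisomerase Top2a at 75 and 48 CPM. No phase was called from these counts.

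The 20 C1q-bearing cells of the coculture library differed from the members in many genes, but their sort gate, medium, coculture and library differ together and cannot be told apart. They held 297339 UMIs in all, so that 10 CPM is about 3 UMIs there. At 10 CPM, 1601 of 8625 genes (18.6%) were higher in the members and 895 (10.4%) lower. With TMM scaling 1397 were higher and 987 lower. At 50 CPM, 515 were higher and 325 lower. The coculture cells had a median of 13566.5 UMIs. The eosinophil gene Prg2 had 29 UMIs in them and the platelet gene Ppbp 233, against 0 and 1 in the members, and the part of such transcripts was not tested. Lyz2, a gene of the rule that was not asked of the coculture cells, was at 38637 CPM in the members and 2452 CPM in the coculture cells.

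Class II genes were lower in the members than in the coculture cells, in 11 of 11 cases with a median log2 ratio of -3.56. H2-Aa was at 259 CPM in the members and 3814 CPM in the coculture cells (3595 to 4042), and Cd74 had a log2 ratio of -2.49 (-2.54 to -2.44). Cd86, a costimulatory ligand, was at 18.2 and 232 CPM. All 6 of 6 measured CXC chemokines were lower too, and Pf4 and Ppbp, known from platelets, were at 103 against 2344 CPM and 0.116 against 784 CPM. Arg1 was at 54.0 against 636 CPM, and the inflammatory cytokine Il1b at 40.3 against 706 CPM.

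Higher in the members were 3 of the 5 given markers. Gpnmb had a log2 ratio of 6.90 (5.35 to 9.17), Mrc1 of 5.72 (3.24 to 11.02) and Wfdc17 of 5.05 (4.49 to 5.68), while Mmp12 differed by less than 2-fold at 0.55 and Ctss at 0.77. The cholesterol exporter Abcg1 was at 295 CPM in the members and 3.36 CPM, from 1 UMI, in the coculture cells. Lpl was at 1061 against 16.8 CPM, Chil3 at 1385 against 16.8 CPM and S100a4 at 1127 against 26.9 CPM. Ly6c2, a gene of the sort gate with a near-identical copy, had no UMI in the coculture cells, so that it was at least 34.8-fold higher in the members. Of the lysosomal hydrolases 10 of 22 were higher in the members, with Psap at 10047 against 1493 CPM, and of the S phase genes 11 of 20, each of them from fewer than 10 UMIs in the coculture cells.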

How the data were processed

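Single-cell 3' RNA libraries of 2 sorted bone marrow cultures were analysed, 1 per group. The authors deposited raw UMI counts per gene and barcode for 47729 genes, not normalized, made with Cell Ranger and bcl2fastq against mm10 per the submitters' processing notes; per the file headers, software version 3.1.0 wrote them. The sources used here give no annotation release and no rule for calling cells. Chromosomes came from GENCODE on GRCm38, the same build. Of the deposited counts, those of barcodes past the cuts of 500 genes and 10% mitochondrial share were summed per group (Python 3.11.15, numpy 2.4.6, scipy 1.17.1). TMM factors came from edgeR 4.0.16, used for scaling and not for a test. Cells were thinned to 5000 UMIs with a fixed seed, leaving out 8 members, 1 bearing macrophage and 222 neutrophil barcodes. The ratio intervals were checked on simulated Poisson counts, the model they assume, so the check does not cover variation between cells. No doublet caller was run, and transcripts of the human cells were not analysed here.

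The members and gene lists were chosen with earlier results of these data known; the neutrophil barcodes and the CTGATTGG search were added after seeing the data. Named genes are the given markers, the extremes of each list and comparison (50 CPM or more), the most abundant and those with the highest Fano factor. Other list members named for their role were picked after their values were seen. The alternatives moved each criterion of the rule, the scaling, the CPM minimum and the fold.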

Additional observations from a re-analysis of the deposited data

How the results depend on the processing

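The members numbered 227 (Ctss of at least 0.3%) to 363 (S100a8 and S100a9 below 0.5%) under the other settings. The cause of the moved counts was not tested where a setting changed neither the fold nor the minimum. Higher and lower counts are given in that order, over the other kept barcodes, the bearing macrophages, neutrophil barcodes and the C1q-bearing coculture cells. At 1.5-fold they were 865 and 463, 68 and 180, 3938 and 787, and 2762 and 1527. With 50 CPM they were 68 and 100, 1 and 34, 775 and 240, and 515 and 325. With a minimum of 10 UMIs over both groups they were 726 and 1055 over the other barcodes, 259 and 405 over bearing macrophages, and 4005 and 960 over neutrophil barcodes. With thinning to 5000 UMIs they were 948 and 374 over the other barcodes and 206 and 279 over bearing macrophages, and 1601 were lower than in the coculture cells. With equal weight per cell they were 978 and 659 over the other barcodes, and 7 were higher than in bearing macrophages. TMM scaling gave 103 higher than the other barcodes, and 1226 and 870 over neutrophil barcodes. Over bearing macrophages 42 were higher with Ctss of at least 0.3%, 6 with Lyz2 of at least 2%, and 41 with bearing macrophages below 0.5%, an alternative chosen after seeing the data. Without bearing macrophages among the other barcodes, also chosen after, the counts were 775 and 368.

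Single genes changed sign in 5 cases. These were Ctsg over bearing macrophages (2.66 with S100a8 and S100a9 below 0.5%), Dut over neutrophil barcodes (0.46 with equal weight per cell), and Il1a (0.70), Stat5a (-0.68) and Tnfsf9 (0.087) over the coculture cells after thinning. Of the named genes past 2-fold, 101 of 101 over the other barcodes, 28 of 29 over bearing macrophages, 289 of 290 over neutrophil barcodes and 237 of 262 over the coculture cells had a ratio of the same sign in every planned setting that was run; most of the others had too few UMIs for a ratio in some setting. Past 2-fold in every planned setting were 74 of 101, 20 of 29, 226 of 290 and 187 of 262. No paired analysis was possible because each group holds 1 library, and no replicate could be left out. The comparison with the coculture cells was not run with Ctss of at least 0.3%, which left 3 of them. Depth limits the coculture comparison most, with 3 UMIs at 10.1 CPM there, against 0.349 CPM in the members.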
